A study of Mus musculus with 12 samples.

Results

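The oogenesin genes Oog1, Oog2, Oog3 and Oog4 were examined in mouse 2-cell embryos cultured with IWR1 or with DMSO. The members were the entries of the deposited RNA-seq table whose gene symbol was Oog1, Oog2, Oog3 or Oog4, which gave 4 of 24918 entries, and the measure was the share of each library's raw counts that each gene took. Oog2, Oog3 and Oog4 were higher in every IWR1 library than in every DMSO library, an order also found for 28.3% of the 14994 entries tested, and Oog1 had no count in any library. Together the 4 genes took 2.08% ± 0.395 of all counts in IWR1 libraries and 0.797% ± 0.235 in DMSO libraries (SD, n = 4 each).

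The IWR1 group was cultured with 50 µM IWR1-endo, a tankyrase inhibitor, and the DMSO group with the solvent. In both groups the mothers were NSA(CF-1) and the fathers B6SJLF1/J. Pronuclear embryos were taken 16 to 20 h after hCG, kept in KSOM medium under 5% oxygen and collected 46 h after hCG. Each RNA library was made from 10 pooled embryos, with 4 independent collections in each group. The IWR1 libraries, numbered 5 to 8 in the deposited table, held 17963977 to 32931800 counts, and the DMSO libraries, numbered 1 to 4, held 16606155 to 49672143. Chromatin accessibility was measured by ATAC-seq on 2 collections of 100 embryos in each group.

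Oogenesins are leucine-rich repeat proteins of the PRAME family, a family of tandemly repeated genes that in the mouse is expressed mainly in germ cells and early embryos. They are known as maternal genes: their transcripts accumulate in the growing oocyte, are inherited by the zygote and belong to the store of maternal RNA that mouse embryos degrade around the 2-cell stage, when transcription of the embryonic genome begins. Oog1, the first to be described, encodes a protein reported to move into the nucleus of early mouse embryos and to bind Ras and a Ral exchange factor, and its promoter has been studied for E-boxes and Nobox sites, the DNA elements used by oocyte transcription factors.

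The sequences just upstream of the 4 genes are shown because the 4 genes share runs of bases at this place that few other promoters hold. The 150 bases before each annotated start were taken from RefSeq on GRCm38.p6, which is the mm10 assembly, and are written 5′ to 3′ on the strand of the gene, with capitals for the runs of at least 9 bases found in the promoter windows of all 4 genes. The Oog1 stretch lies at chr12:87602515-87602664 on the plus strand, the Oog2 stretch at chr4:144190567-144190716 on the plus strand, the Oog3 stretch at chr4:144162652-144162801 on the minus strand and the Oog4 stretch at chr4:143450325-143450474 on the minus strand.
Oog1: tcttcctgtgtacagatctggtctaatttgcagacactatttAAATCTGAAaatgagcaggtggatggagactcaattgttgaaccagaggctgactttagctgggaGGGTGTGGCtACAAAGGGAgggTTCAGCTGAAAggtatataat
Oog2: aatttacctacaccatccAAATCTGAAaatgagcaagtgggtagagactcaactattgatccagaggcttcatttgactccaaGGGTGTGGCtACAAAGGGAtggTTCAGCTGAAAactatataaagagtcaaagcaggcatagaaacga
Oog3: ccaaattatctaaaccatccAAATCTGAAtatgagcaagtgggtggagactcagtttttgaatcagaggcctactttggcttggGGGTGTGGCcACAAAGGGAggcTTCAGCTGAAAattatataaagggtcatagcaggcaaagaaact
Oog4: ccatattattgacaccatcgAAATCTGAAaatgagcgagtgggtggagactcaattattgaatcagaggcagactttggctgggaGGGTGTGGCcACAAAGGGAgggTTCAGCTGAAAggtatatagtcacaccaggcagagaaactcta

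The 300-base RefSeq windows, from 250 bases before to 50 bases after each start, were aligned between pairs of oogenesins. Identity was 76.3% to 83.6% of the 269 to 295 bases that aligned without a gap, and by this measure Oog1 and Oog4 were the most alike. The longest run shared by all 4 was TTCAGCTGAAA, which reads CAGCTG, an E-box, in its middle. It began 21 bases upstream of the Oog1 start, 45 upstream of Oog2, 44 upstream of Oog3 and 43 upstream of Oog4, and was present on either strand in 17 of 32851 mouse promoter windows, or 0.0517%. The other shared runs were commoner: AAATCTGAA was in 0.426% of windows, ACAAAGGGA in 0.493% and GGGTGTGGC in 1.35%. Apart from the oogenesins, 12 genes had a window with the 11-base run, and 5 of these genes were in the RNA-seq table and were tested. Of the 5, the PRAME family genes C87499 and Gm13084 and the second Gm2042 entry were called higher in IWR1 and none was called lower, while the channel gene Kcnj13 had an adjusted p of 0.0696 and Pik3ip1 one of 0.0545 (quasi-likelihood test of edgeR, Benjamini-Hochberg adjusted over all entries). Over all tested entries 23.3% were called higher and 25.4% lower. This count was not tested, and close copies may share reads as well as sequence.

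Motifs named for oocyte factors were also counted. The general E-box, CANNTG on either strand, was in all 4 windows and in 72.3% of all windows. Of the core motifs searched for Nobox, TAATTG was present in the windows of Oog3, 239 bases upstream, and Oog4, 99 bases upstream, both on the minus strand, against 8.00% of all windows, and TAATTA was in none of the 4, against 5.29% of all windows. The letters TATAAA, a form of the TATA box, lay 30 bases upstream of Oog2 and 29 bases upstream of Oog3 and were in 13.6% of all windows. The letters TATATA, chosen after the sequences were seen, lay 8 bases upstream of Oog1, 32 upstream of Oog2, 31 upstream of Oog3 and 30 upstream of Oog4, and were in 5.67% of all windows. A match of letters is a description and not a shown binding site.

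Oog3 (gene ID 100012, chr4:144157556-144162651 on mm10, minus strand) was by far the most abundant oogenesin. It took 2.23, 1.74, 1.55 and 2.33% of counts in IWR1 libraries 5 to 8, against 1.02, 0.904, 0.675 and 0.513% in DMSO libraries 1 to 4. The lowest IWR1 library was 1.52 times the highest DMSO library, so the groups did not overlap. In these bulk libraries, fewer cells with a transcript and less of it per cell cannot be told apart. By share of counts Oog3 ranked 1, 2, 3 and 1 among all entries in IWR1 libraries 5 to 8 and 2, 2, 3 and 4 in DMSO libraries 1 to 4, which places it among the leading transcripts of the 2-cell embryo in both groups. Its level per length was 10580 ± 2052 FPKM in IWR1 and 4196 ± 1226 FPKM in DMSO (FPKM, the count scaled to the deposited gene length and the library total; SD, n = 4 each). The mean share was 2.52-fold higher in IWR1, with a two-sided exact permutation p of 0.0286, the smallest that 4 against 4 libraries can give. In the fit across all genes the log2 fold change was 1.18 ± 0.23 (SE), with an adjusted p of 0.00116 (edgeR).

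Oog4 (gene ID 242737, chr4:143437164-143450324, minus strand) had the largest fold change of the 3 tested oogenesins and the widest relative spread. It took 0.123, 0.135, 0.0440 and 0.0668% of counts in IWR1 libraries 5 to 8, against 0.0171, 0.0104, 0.00975 and 0.00399% in DMSO libraries 1 to 4. Every IWR1 library was above every DMSO library, with IWR1 libraries 5 and 6 well above 7 and 8, and DMSO library 4 lowest. In FPKM the gene averaged 471 ± 224 in IWR1 and 52.6 ± 27.3 in DMSO (SD, n = 4 each). Its rank among all entries was 78 to 341 in IWR1 libraries and 1339 to 3946 in DMSO libraries. The mean share was 8.96-fold higher in IWR1 (two-sided exact permutation p = 0.0286), and the log2 fold change was 3.01 ± 0.44 (SE; edgeR adjusted p = 0.000149).

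Oog2 (gene ID 381570, chr4:144190717-144196934, plus strand) was the least abundant oogenesin with counts in IWR1 libraries. It took 0.0345, 0.0282, 0.0235 and 0.0290% of counts in IWR1 libraries 5 to 8, against 0.0113, 0.0110, 0.00917 and 0.00525% in DMSO libraries 1 to 4. The groups did not overlap, and DMSO library 4 was again the lowest. Its level was 149 ± 23.4 FPKM in IWR1 and 47.7 ± 14.5 FPKM in DMSO (SD, n = 4 each). The mean share was 3.13-fold higher in IWR1 (two-sided exact permutation p = 0.0286), and the log2 fold change was 1.49 ± 0.24 (SE; edgeR adjusted p = 0.000272).

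**Figure D1:**
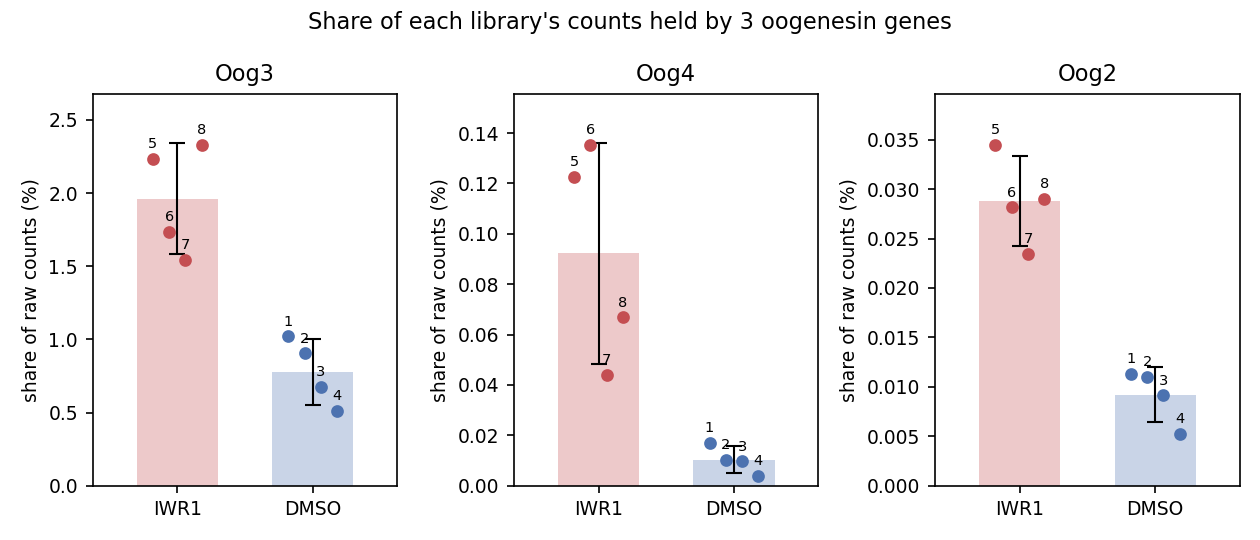
Share of each library's raw counts, in percent, held by Oog3, Oog4 and Oog2, on separate linear scales, in IWR1 (left) and DMSO (right) libraries. Points are libraries with their numbers, bars are means and error bars SD (n = 4 each); for each gene all 4 IWR1 points lie above all 4 DMSO points, and DMSO library 4 is the lowest.

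Oog1 (gene ID 193322, chr12:87602665-87608845, plus strand) had 0 counts in all 4 IWR1 libraries and all 4 DMSO libraries and was not tested. At these depths a count of 0 allows up to 0.0604 to 0.181 CPM (counts scaled to the library total), taking 3 counts as the limit in each library, and this covers counting error only. A near copy of its promoter belongs to Gm2042 (chr12:87954480-87960682), a gene singled out after its values were seen, whose 300-base RefSeq window was identical to that of Oog1 at 299 of 300 bases. The table gives Gm2042 as 2 entries, of which the first was at 0 and the second had 43715 counts over the 8 libraries. That second entry stood at 169, 156, 121 and 138 FPKM in IWR1 libraries 5 to 8, against 76.6, 64.6, 89.1 and 48.8 FPKM in DMSO libraries 1 to 4, with a log2 fold change of 0.88 ± 0.23 (SE; edgeR adjusted p = 0.00659). Of the entries of genes listed at several loci, 1116 of 1228, or 90.9%, were at 0 in all libraries, against 15.7% of entries with 1 locus. Oog1 itself was listed at 1 locus, so the 90.9% is not the rate of its own class. The sources used here do not say how reads matching near-identical copies were assigned, so the 0 of Oog1 is reported as listed, and the split of reads between Oog1 and its copies was not tested.

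All 3 oogenesins with counts passed the filter on low counts and were called higher in IWR1, where 23.3% of the 14994 tested entries were called higher and 25.4% lower. Groups that did not overlap, with every IWR1 share above every DMSO share, were found for the same 3 genes and for 28.3% of tested entries. The log2 fold change of Oog4 stood at percentile 96.1 of all tested entries, with 587 entries larger, or 90 larger among the 7070 entries with a mean of at least 5 FPKM. That of Oog2 stood at percentile 80.4 and that of Oog3 at 74.3. The median log2 fold change over all tested entries was 0.17.

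In the authors' deposited table the log2 fold changes of the same genes were 1.53 for Oog2, 1.22 for Oog3 and 3.05 for Oog4. The adjusted p-values in the authors' deposited table were 3.83e-09 for Oog2, 5.86e-07 for Oog3 and 2.48e-13 for Oog4.

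The change of Oog4 differed from those of Oog3 and Oog2 when means were compared. The 3 ratios between members could be formed within each library, which needs no scaling between libraries. They are given as log2 ratios of FPKM, with p-values from two-sided exact permutation tests adjusted over the 3 pairs. Oog4 over Oog3 was -4.27, -3.76, -5.21 and -5.20 in IWR1 libraries 5 to 8, against -5.98, -6.52, -6.19 and -7.09 in DMSO libraries 1 to 4. The groups did not overlap: Oog3 exceeded Oog4 by 13.6 to 37.1 times in IWR1 libraries and by 63.1 to 136 times in DMSO libraries. The mean difference was 1.84 (exact permutation p = 0.0286, adjusted p = 0.0429).

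Oog4 over Oog2 averaged 1.53 ± 0.61 in IWR1 and 0.03 ± 0.41 in DMSO (SD, n = 4 each), a difference of 1.50 (exact permutation p = 0.0286, adjusted p = 0.0429). In IWR1 every library had more Oog4 than Oog2 per length, by 1.85 to 4.73 times, whereas in DMSO the ratio was 0.748 to 1.48. Compared as medians, the differences were 1.62 over Oog3 and 1.51 over Oog2 (exact permutation test, adjusted p = 0.0571 for each). A permutation test of medians of 4 against 4 libraries cannot give less than 0.0571, because regroupings tie. It therefore cannot decide either call for Oog4. Oog2 over Oog3 averaged -6.14 ± 0.17 in IWR1 and -6.47 ± 0.18 in DMSO (SD, n = 4 each), a difference of 0.33 (exact permutation p and adjusted p = 0.0571). A difference between Oog2 and Oog3 in their change thus missed the threshold of 0.05, with DMSO library 3, at -6.26, above IWR1 library 8, at -6.38. Within IWR1 the order of levels was Oog3, Oog4 and Oog2, and the ranges of neighbours did not overlap, with 225 to 691 FPKM for Oog4 and 122 to 179 FPKM for Oog2. In DMSO the level of Oog3 was again above the others, and Oog4, at 20.4 to 87.2 FPKM, overlapped with Oog2, at 27.2 to 58.8 FPKM.

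**Figure D2:**
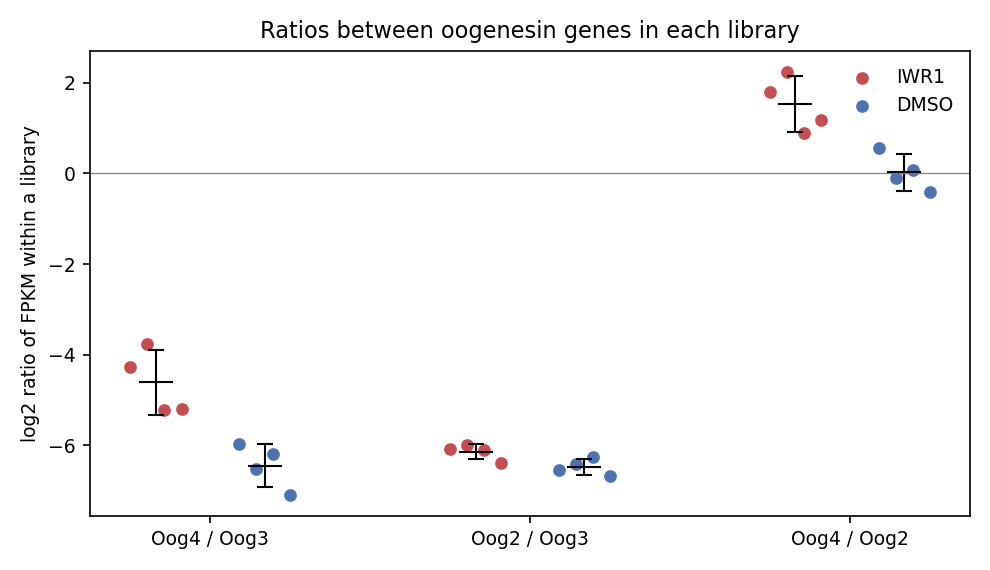
Log2 ratio of FPKM between pairs of oogenesins within each library, IWR1 left and DMSO right in each pair, with points for libraries and bars for the mean ± SD (n = 4 each). Both ratios with Oog4 on top are higher in every IWR1 library than in any DMSO library, while Oog2 over Oog3 overlaps between groups.

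Oog3 made up 91.4 to 96.0% of all oogenesin counts in IWR1 libraries and 97.3 to 98.2% in DMSO libraries. Oog4 made up 2.73 to 7.12% in IWR1 libraries and 0.764 to 1.63% in DMSO libraries. Oog2 made up 1.20 to 1.48% in IWR1 libraries and 1.01 to 1.32% in DMSO libraries.

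Sequencing depth differed within both groups, and the folds of the oogenesins were larger among the deeper libraries. In the shallower libraries of each group, IWR1 libraries 5 and 7 and DMSO libraries 1 and 2, the mean share of Oog4 was 6.07-fold higher in IWR1, and in the deeper ones, IWR1 libraries 6 and 8 and DMSO libraries 3 and 4, it was 14.7-fold higher. For Oog3 the folds were 1.96 in the shallower and 3.42 in the deeper libraries, and for Oog2 they were 2.59 and 3.97. All 3 genes were lowest in DMSO library 4, the deepest of all, and the part of depth in these folds was not tested. In the shallower libraries alone Oog3 kept its call with a log2 fold change of 0.95 (edgeR adjusted p = 0.0470).

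Genes whose profiles over the 8 libraries most resembled those of the oogenesins were sought by the root mean square (RMS) difference of mean-centred log2(CPM + 1) values, in log2 units, among 7067 entries with a mean of at least 5 FPKM. Among themselves the oogenesins fell into an alike pair and a separate member: the RMS difference was 0.218 between Oog2 and Oog3, 0.874 between Oog2 and Oog4 and 1.05 between Oog3 and Oog4. Nearest to Oog2 was Gm13023, named Pramel25 in RefSeq, at 0.0591, followed by Magea10, a cancer-testis antigen gene, at 0.115 and 4930433N12Rik at 0.118. Gm13023 stood at 655 ± 97.0 FPKM in IWR1 and 205 ± 60.8 FPKM in DMSO (SD, n = 4 each), and it lies on chromosome 4, as Oog2 does. Nearest to Oog3 were Rgs17, a regulator of G protein signalling, at 0.114, Angptl2, a secreted glycoprotein gene, at 0.115 and Pld1, which encodes phospholipase D1, at 0.121.

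Oog4 had no close match. Its nearest profiles were Miox, the myo-inositol oxygenase gene, at an RMS difference of 0.299, and the G protein subunit genes Gnb5, at 0.304, and Gng3, at 0.321. Miox stood at 1480, 1121, 570.0 and 592 FPKM in IWR1 libraries 5 to 8, against 125, 130, 80.8 and 44.7 FPKM in DMSO libraries 1 to 4, and like Oog4 it was higher in IWR1 libraries 5 and 6 than in 7 and 8. The summed oogenesin profile, which Oog3 dominates, was nearest to Angptl2 at 0.107, Rgs17 at 0.113 and Mpp5, a cell polarity scaffold gene, at 0.116.

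Oog2 and Oog3 are neighbours on chromosome 4, 28.1 kb apart and on opposite strands, and Oog4 lies 707 kb from Oog3 on the same chromosome. The genes around them did not all move with them. C87977, named Pramel29 in RefSeq and 9.83 kb from Oog2, stood at 950 ± 265 FPKM in IWR1 and 210 ± 84.4 FPKM in DMSO (SD, n = 4 each), and its log2 fold change was 2.03 ± 0.30 (SE; edgeR adjusted p = 0.000168). On the other side of Oog3, Pramel4, 88.2 kb away, was lower in IWR1, at 6.63 ± 2.12 FPKM, against 33.9 ± 8.41 FPKM in DMSO (log2 fold change -2.56 ± 0.30, edgeR adjusted p = 4.09e-05). Pramel5, 73.7 kb from Oog2, and Gm13102, 47.5 kb from Oog3, were lower as well, with log2 fold changes of -1.42 and -1.88 (edgeR adjusted p = 0.00364 and 0.00400).

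Of the tested genes within 100 kb of Oog4, none was called higher. Pramef8, 16.1 kb away, had a log2 fold change of 0.36 (edgeR adjusted p = 0.263), and Pramel1 one of -1.28 (adjusted p = 0.245). Lrrc38, which encodes an auxiliary protein of potassium channels, was lower, at 0.112 ± 0.0883 FPKM in IWR1 and 1.60 ± 0.523 FPKM in DMSO (edgeR adjusted p = 0.00375). It had only 7, 15, 4 and 0 counts in IWR1 libraries 5 to 8. The DMSO libraries alone were enough to pass it through the filter on low counts, which bears on its direction. Near Oog1, Gm8300, 84.4 kb away, was called higher in IWR1 (log2 fold change 1.94 ± 0.35, edgeR adjusted p = 0.000668), both entries of Gm16381 were not called, and Gm4027 was at 0 in all libraries. For a wider window, genes were placed by their lower coordinate, which for genes on the minus strand, such as Oog3, is not the transcription start. Within 1000 kb of Oog3 by this measure, 20 PRAME family entries other than the oogenesins were tested. Of these, 7 were higher in IWR1, 5 lower and 8 not called, with 23.3% of all tested entries higher and 25.4% lower.

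**Figure D3:**
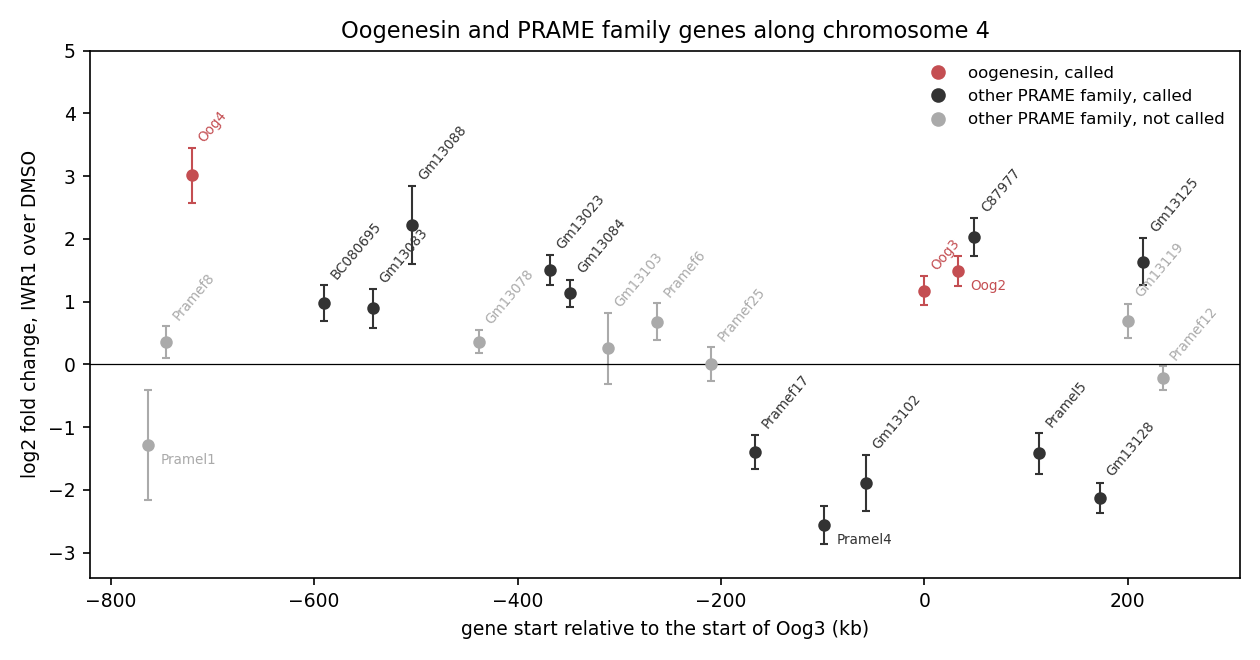
Log2 fold change, IWR1 over DMSO, of tested oogenesin and other PRAME family entries on chromosome 4 against the distance of the gene start from the start of Oog3 in kb, with error bars of 1 SE from the edgeR fit. The start here is the lower coordinate of each gene, whatever its strand. Oog2, Oog3 and Oog4 (red) are all higher in IWR1, and called genes that are lower, such as Pramel4 and Pramel5, lie on either side of Oog2 and Oog3.

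The wider PRAME family moved in both directions. A list of 61 PRAME family symbols outside the oogenesins, drawn up from general knowledge, matched 48 symbols and 76 entries of the table, of which 32 were at 0 in all libraries and 40 were tested. Of the 40, 18 were higher in IWR1, 12 lower and 10 not called, with a median log2 fold change of 0.65, against 23.3% higher, 25.4% lower and a median of 0.17 over all tested entries. Counting only entries that the table or RefSeq names as PRAME genes, 12 of 30 were higher and 8 lower, with a median of 0.49. In the deeper libraries alone 9 list entries were higher and 11 lower, beside 2063 higher and 2802 lower over all tested entries. In the shallower ones alone 16 were higher and 5 lower, beside 1906 higher and 2088 lower over all tested entries. The larger count in the list thus changed direction with the libraries used, while over all entries more were lower in each subset. The 40 tested entries passed a filter that the group with the higher level can satisfy alone, and they share sequence, so that reads of close copies may be split between them.

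By mean level the leading members of the list were C87977, Gm13023, Gm10436 (Pramel51), Gm8300, Pramel7 and Gm13084 (Pramel26). All but Pramel7 were higher in IWR1: beside C87977, Gm13023 and Gm8300, Gm10436 averaged 528 FPKM in IWR1 and 97.2 FPKM in DMSO, and Gm13084 averaged 215 FPKM in IWR1 and 87.1 FPKM in DMSO. Pramel7, known from mouse blastocysts and embryonic stem cells, was lower, at 95.6 ± 35.3 FPKM in IWR1 and 305 ± 84.4 FPKM in DMSO (SD, n = 4 each; log2 fold change -1.89 ± 0.31, edgeR adjusted p = 0.000317). The whole list together took 0.728 to 0.840% of counts in IWR1 libraries and 0.349 to 0.413% in DMSO libraries, less than Oog3 alone in every library.

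Promoter likeness to an oogenesin was found for 7 genes whose windows shared at least 15 of their 12-base words with one of the 4. They were Gm2042, with 277 of 289 words in common with Oog1, Gm13084, with 166 in common with Oog2, Gm13023, with 158 in common with Oog1, C87977, with 102 in common with Oog1, C87499, with 50 in common with Oog4, Gm13103, with 46 in common with Oog3, and Pramel23, with 22 in common with Oog4. Of the 6 that were tested, 5 were called higher in IWR1, as were 23.3% of all tested entries, and Gm13103 had a log2 fold change of 0.26 (edgeR adjusted p = 0.728). No test of this count was made, and close copies may share reads as well as sequence.

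**Figure D4:**
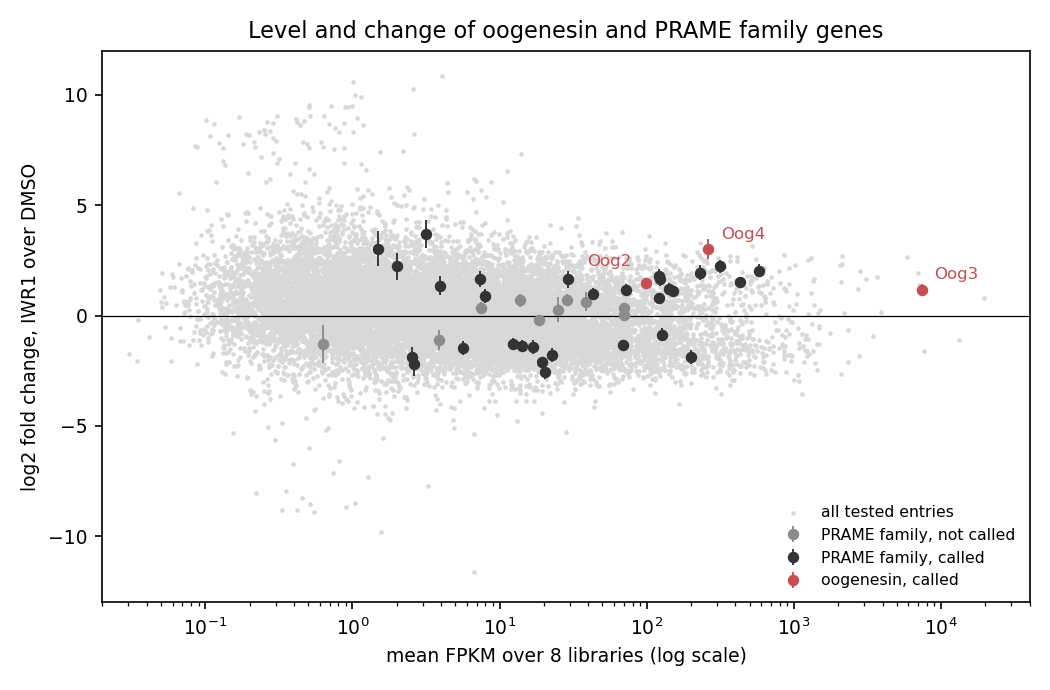
Log2 fold change, IWR1 over DMSO, against the mean FPKM over the 8 libraries on a log scale, for oogenesins (red), other PRAME family entries (black where called, dark grey where not) and all tested entries (light grey), with error bars of 1 SE. Oog3 is among the most abundant entries of the table, and Oog4 lies in the upper edge of the entries at its level.

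Genes of pathways linked to the oogenesins, oocyte transcription factors and the Ras and Ral pathway, moved in both directions. Of 10 oocyte transcription factor genes tested, 5 were higher in IWR1, 1 was lower and 4 were not called, with a median log2 fold change of 1.32, beside 23.3% higher, 25.4% lower and a median of 0.17 over all tested entries. Ybx2, a germ cell RNA-binding protein gene, changed by 1.96 ± 0.22, and Sohlh1, a factor of early oocyte growth, stood at 4.80 ± 0.533 FPKM in IWR1 and 0.0739 ± 0.0877 FPKM in DMSO (SD, n = 4 each). Sohlh1 had 0, 3, 11 and 0 counts in DMSO libraries 1 to 4 and passed the filter on low counts through the IWR1 libraries. Its direction, as 1 of the 5 higher, was fixed by that filter. Gtf2a1l, a germ cell form of a general transcription factor, was higher by a log2 fold change of 1.20 ± 0.25, and Taf4b, which encodes a germ cell subunit of the TFIID complex, was lower, at 13.4 ± 1.23 FPKM in IWR1 and 31.8 ± 2.22 FPKM in DMSO. Of 19 Ras and Ral pathway genes tested, 7 were higher, 2 lower and 10 not called, with a median of 0.42, beside the same 23.3% and 25.4% of all entries. Among those with the smallest adjusted p-values, the log2 fold changes were 1.68 for Rras2, a Ras-related GTPase, 1.10 for the Ral exchange factor Ralgps2 and 1.31 for the GTPase Rala.

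Other oocyte transcripts were set beside the oogenesins. Of 27 oocyte markers tested, 13 were higher in IWR1, 1 was lower and 13 were not called, with a median log2 fold change of 0.87, beside 23.3% higher, 25.4% lower and a median of 0.17 over all tested entries. Their summed share was 4.77 to 6.13% in IWR1 libraries and 0.987 to 1.90% in DMSO libraries. Btg4, an adaptor of maternal RNA decay, stood at 10223 ± 2129 FPKM in IWR1 and 1455 ± 603 FPKM in DMSO (SD, n = 4 each), a mean close to that of Oog3 in IWR1 and below it in DMSO. Npm2 and Wee2 were higher too, with log2 fold changes of 2.05 and 1.60, and the zona pellucida gene Zp3 was the 1 lower marker, at -1.28. Of 17 markers of the 2-cell stage tested, 9 were higher, none lower and 8 not called, with a median of 1.05 beside the same values of all entries, led by Zscan4c at 3.39 and Zscan4f at 3.77. Their summed share was 0.290 to 0.444% in IWR1 libraries and 0.145 to 0.197% in DMSO libraries.

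Markers of other cells were rare beside Oog3, and the summed shares of all these lists but that of cumulus and granulosa cells did not overlap between groups. The counts called in these lists stand beside 23.3% higher and 25.4% lower over all tested entries. Immune and blood markers took 0.00591 to 0.00888% of counts in IWR1 libraries and 0.000909 to 0.00189% in DMSO libraries, with 3 of 4 tested called higher, none lower, and Ptprc, Tyrobp and the globin genes Hba-a1, Hba-a2, Hbb-bs and Hbb-bt at 0. Sperm markers took 0.000847 to 0.00204% in IWR1 libraries and 0.000174 to 0.000319% in DMSO libraries, with 3 of 5 tested called higher and Smcp at 0. Of the 3, Tnp1 had 0 counts in 3 DMSO libraries and 4 in the other, and Prm1 0 in 3 and 8 in the other, so both passed the filter on low counts through the IWR1 libraries, and their direction was fixed by that filter. Prm2, also called higher, had 3, 21, 36 and 43 counts in DMSO libraries 1 to 4. The count in DMSO library 1 was too low for the filter, so Prm2 too needed IWR1 libraries to pass, which bears on its direction. Cumulus and granulosa markers took 0.00329 to 0.00497% in IWR1 libraries and 0.00393 to 0.00737% in DMSO libraries, with 1 of 5 tested higher, 1 lower and Amh, Inhba and Pgr at 0. Oviduct markers took 0.0143 to 0.0291% in IWR1 libraries and 0.0334 to 0.0407% in DMSO libraries, above Oog2 and Oog4 in every DMSO library, with 1 of 2 tested lower and none higher. Most of that share came from Epcam, the 1 called lower, at 116 FPKM in IWR1 and 183 FPKM in DMSO. The other tested gene, Ovgp1, was not called and stood at 1.30 FPKM in IWR1 and 2.83 FPKM in DMSO. The part of such cells in the levels of the oogenesins was not tested.

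No deposited region of changed ATAC-seq signal lay near an oogenesin gene. Of the 4 genes, 0 had a region within 100 kb, while 33% of 21887 protein-coding genes had an IWR1-high region and 17.5% an IWR1-low region at that distance. Within 10 kb the shares were 11.7% for IWR1-high and 4.9% for IWR1-low regions. The nearest of the 2345 IWR1-high regions was 162 kb from Oog4, 272 kb from Oog1, 545 kb from Oog3 and 578 kb from Oog2. The nearest of the 1400 IWR1-low regions was 601 kb from Oog1 and at least 1000 kb from each of the other 3 genes. The lists hold positions without values per library, so the accessibility at the oogenesin promoters themselves was not analysed here.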

How the data were processed

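RNA-seq counts per gene were deposited by the authors as whole numbers for 4 IWR1 and 4 DMSO libraries, with a gene length for each entry. The submitters' processing notes name mm10, STAR 2.5.1b, featureCounts 1.5.0-p1, cutadapt 1.11, Trim Galore, Bowtie2 2.2.6, bcl2fastq, MACS2 and DESeq2, without their roles. The labels' protocols describe SMART-Seq v4 amplification of pooled embryos; strand use and the handling of multiply mapped reads are not given in the sources used here. PCR copies without molecular identifiers are not independent molecules, so a limit from a count of 0 covers counting error only. The log2 fold changes and the adjusted p-values named as the authors' were deposited by the authors in the same table. ATAC-seq region lists were used for positions alone.

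From the counts, shares of each library and FPKM (count per deposited length and library total) were computed. The table held 24918 entries, 24815 of them matched to RefSeq, and none without a gene name. Tests across genes used edgeR 4.0.16 in R 4.3.3 (filterByExpr, TMM, quasi-likelihood, Benjamini-Hochberg over 14994 entries, threshold 0.05). The code was run on simulated counts in which few genes changed, evenly up and down. Far more entries were called in these data, so the simulation does not show how the fit performs under such wide change. DESeq2 1.42.0 was an alternative. Single values used two-sided exact permutation tests over libraries. Of the 6 pairs of oogenesins planned, 3 could be tested, since Oog1 was at 0. A replicate is 1 collection, and p-values measure the spread between these 4 collections per group. The 16 columns of values per library already normalized by the authors, and a quality table, were not used.

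Named were the members, the 3 nearest profiles of each, the 6 most abundant listed PRAME family genes, up to 4 genes of each other list by smallest adjusted p, and tested neighbours within 100 kb, with 1 gene of these lists not reported here; Gm2042 and the genes with alike promoters or the shared run were added after values were seen. The members and lists were chosen with earlier results of these data known. Sequences are from RefSeq (GRCm38.p6), in which all 4 genes were found. Promoter windows were aligned with Biopython 1.88.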

Additional observations from a re-analysis of the deposited data

Results flagged for a closer look

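In 6 of 122 sets of 4 libraries, 1 library stood apart, where chance sets apart about 1 set in 20. The sets were the shares of the oogenesins, their ratios and the levels of the nearest profiles, the tested neighbours, the second Gm2042 entry and the genes chosen from the lists. No oogenesin had such a library: the high values of Oog4 in IWR1 libraries 5 and 6 and the low values of all 3 genes in DMSO library 4 were within the limit for 4 libraries. Gm8300, the gene near Oog1, had 716 FPKM in IWR1 library 7, against 225 to 296 FPKM in the other IWR1 libraries. Pramel4, the gene near Oog3, had 3.46 FPKM in IWR1 library 5, against 7.52 to 7.89 FPKM in the others. Ybx2 had 40.4 FPKM in IWR1 library 6, against 32.4 to 33.7 FPKM in the others. The cumulus marker Tnfaip6 had 3.91 FPKM in DMSO library 4, against 1.71 to 1.96 FPKM in the other DMSO libraries. Of the sperm markers, Tnp1 had 0.190 FPKM in DMSO library 3 and Prm1 had 0.403 FPKM in DMSO library 4, each against 0 in the other DMSO libraries.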

How the results depend on the processing

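Oog2, Oog3 and Oog4 were called higher in IWR1 under all 16 alternatives of the fit (other scalings, other filters, DESeq2, each library left out, shallower or deeper libraries alone). Their log2 fold changes ranged from 1.32 to 1.70 for Oog2, from 0.95 to 1.45 for Oog3 and from 2.59 to 3.54 for Oog4, and without 1 library from 1.32 to 1.58, 1.06 to 1.30 and 2.77 to 3.32. Without 1 library the fold of the mean share ranged from 2.74 to 3.40 for Oog2, from 2.26 to 2.81 for Oog3 and from 7.44 to 11.5 for Oog4, each with an exact permutation p of 0.0571, the smallest that 4 against 3 libraries can give. The difference for Oog4 over Oog3 then ranged from 1.55 to 2.04 and that for Oog4 over Oog2 from 1.26 to 1.72, and neither can pass 0.05 at that size. As differences of medians over all libraries they were 1.62 and 1.51, both with an adjusted p of 0.0571 (exact permutation test). That is the smallest p that a test of medians can give with 4 against 4 libraries, so it cannot pass 0.05 either. Entries called higher numbered 3494 and lower 3803. Where fewer libraries were used, they numbered 1906 and 2088 in the shallower libraries alone, and 2063 and 2802 in the deeper ones alone. Of the PRAME family list, 9 entries were higher and 11 lower in the deeper libraries alone, and 16 higher and 5 lower in the shallower ones, an alternative chosen after seeing the data. The median log2 fold change of all entries was 0.17 with TMM, 0.34 with library totals alone and 0.04 with median-centred libraries. No paired analysis was possible because the labels number the samples 1 to 4 in both groups but the table numbers its IWR1 columns 5 to 8, and these could not be matched to single labelled samples. The libraries hold 17963977 or more counts in IWR1 and 16606155 or more in DMSO. Among the oogenesins only Oog1 was at 0. Whether depth or the handling of reads from near copies set that 0 was not tested.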
